A study of Drosophila melanogaster with 3 samples.

Results

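Mitochondrial ribosomal protein genes, the mRp genes, were taken as all protein-coding genes of the dm6 annotation whose symbol begins with mRpL or mRpS. The rule found 73 genes among the 13945 protein-coding genes on the 6 chromosome arms covered by the lists. Of these, 47 encode proteins of the large subunit (mRpL) and 26 proteins of the small subunit (mRpS). The rule used symbols and no measured value. Binding of Insensitive, a BEN-domain DNA-binding protein and transcriptional co-repressor encoded by insv, had been mapped by chromatin immunoprecipitation and sequencing in Drosophila melanogaster embryos. All 3 samples belong to a single group, biological replicates 1, 2 and 3 of pooled male and female whole embryos at 0 to 24 hours. They came from a transgenic line that stably expresses Insensitive with GFP at its C terminus, and the antibody was directed against GFP. Whole embryos mix many cell types, and the sources used here do not say whether an untagged insv copy remained in the line, nor how deeply the libraries were sequenced. There is no second condition, so the mRp genes are compared with the 13872 other protein-coding genes.

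The mitochondrial ribosome translates the few messages encoded by mitochondrial DNA, which specify core subunits of the respiratory chain and ATP synthase. Its proteins are encoded in the nucleus, made in the cytosol and imported. Part of them have bacterial counterparts and part are found in mitochondrial ribosomes and not in bacterial ones. The genes are short and broadly expressed, as is usual for housekeeping genes, and many such genes in flies share a short stretch of promoter with a neighbour transcribed away from them. Insensitive is best known as a co-repressor in Notch signalling and for a palindrome, CCAATTGG, that its BEN domain binds.

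The palindrome stood in 3 mRp promoters, taken as the 250 bases before to the 50 bases after a transcript start. These 3 places are shown because the same letters were found with and without a thresholded peak over them: 1 sits under the strongest mRp peak, and the others do not sit under any thresholded peak. Each sequence is given in the direction of its gene, from dm6, with the palindrome in capitals.
mRpL13 (chr2L:18859325-18859354, minus strand): gtaatatgaatCCAATTGGaatgtgtctga
mRpS23 (chr2L:13835130-13835159, minus strand): ccgtctaaatgCCAATTGGagcgctctagg
mRpL27 (chr2L:4459650-4459679, minus strand): ttttattaacaCCAATTGGcaacagtggcc

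Thresholded peaks lay at 6 of the 73 mRp genes: mRpL13, mRpS23, mRpS10, mRpL41, mRpL23 and mRpL40. The list of peaks past the authors' reproducibility threshold (irreproducible discovery rate, IDR) held 732 peaks, which were the 732 highest-signal regions of a list of 30000 called on the pooled replicates. A peak or region was counted for a gene when its summit lay within 1000 bp of any transcript start. The share was 8.22% (6 of 73, Wilson 95% interval 3.82 to 16.8%), beside 4.36% of other protein-coding genes (605 of 13872). The interval covers counting error only, treats genes as independent although neighbours can share a peak, and includes the background share. Large-subunit genes held 4 of the peaks (4 of 47) and small-subunit genes 2 (2 of 26). Each of the 6 genes had its own peak.

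**Figure D1:**
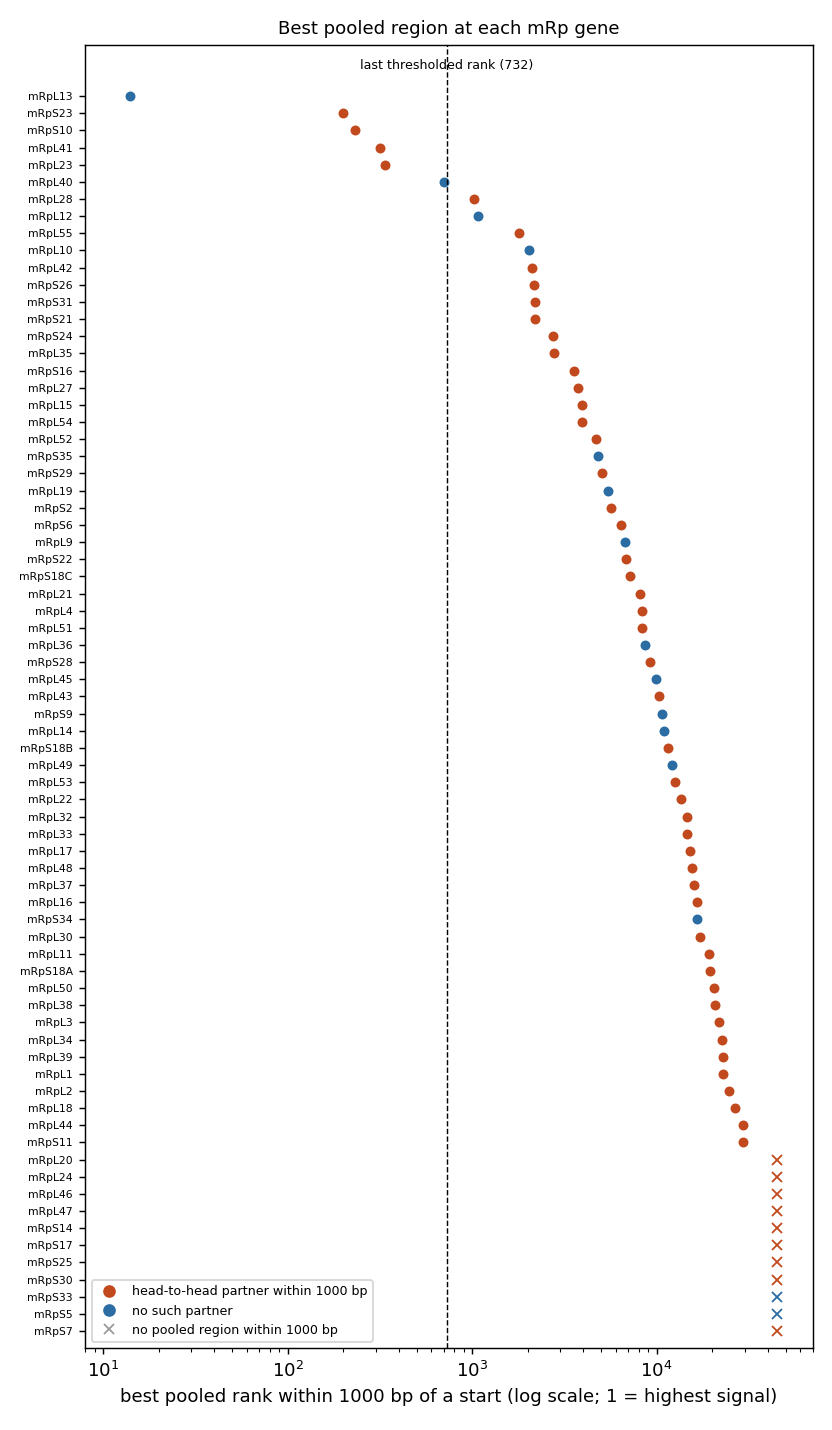
Best-ranked pooled region within 1000 bp of a start for each of the 73 mRp genes, on a log axis of rank (1 is the highest signal of 30000). Dots and crosses are coloured by the presence of a head-to-head partner, the dashed line marks the last thresholded rank, 732, and the 11 crosses are genes with no region. A reader should see mRpL13 alone at rank 14, 5 more genes between 199 and 707, and a long tail down to 29485.

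Most mRp genes started next to a gene transcribed away from them. A head-to-head partner, another protein-coding gene on the opposite strand whose start lies within 1000 bp, was present for 58 of 73 mRp genes (79.5%, Wilson 95% interval 68.8 to 87.1%) and for 36.0% of other genes (4994 of 13872). Partners were read from the annotation for every mRp gene, so this interval reflects the number of genes and no error of measurement. The distance between the paired starts was 100 bp or less for 18 of the 58 (31.0%) and for 16.4% of the other genes that had a partner, with medians of 283 and 298 bp. The range among mRp genes was 20 bp, between mRpL18 and Taz, the tafazzin gene of cardiolipin remodelling, to 793 bp at mRpL4. The nearest partner was in no case another mRp gene. A single partner belonged to the lists of mitochondrial genes counted below, ATPsynD, a subunit of ATP synthase, at 95 bp from mRpL55. The mRp genes were also short, with a median length of 909 bp against 2180 bp, and 67 of 73 (91.8%) had 1 annotated start, against 73.4% of other genes.

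**Figure D2:**
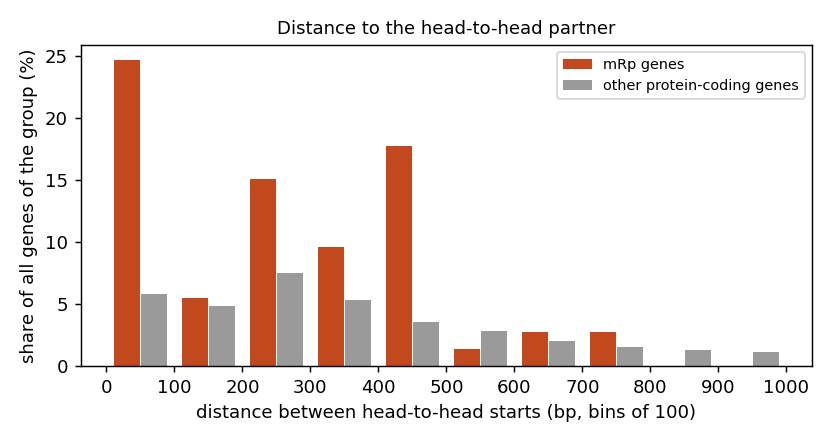
Distance between head-to-head starts in bins of 100 bp (x axis) and the share of all genes of each group that fall in the bin (y axis, percent), for mRp genes and other protein-coding genes. The shortest bin holds 24.7% of mRp genes and 5.86% of the others.

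Because arrangement differed, the peak share was also set beside genes of the same arrangement. Among genes with a head-to-head partner, 4 of 58 mRp genes (6.90%, Wilson 95% interval 2.71 to 16.4%) and 7.11% of other genes (355 of 4994) had a thresholded peak. Among genes without such a partner the counts were 2 of 15 (13.3%) and 2.82% (250 of 8878), a value that rests on mRpL13 and mRpL40 alone. Among genes with 1 annotated start they were 4 of 67 (5.97%) and 2.68% (273 of 10179). With both restrictions together, the counts were 2 of 53 mRp genes (3.77%) and 176 of 3402 others (5.17%).

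**Figure D3:**
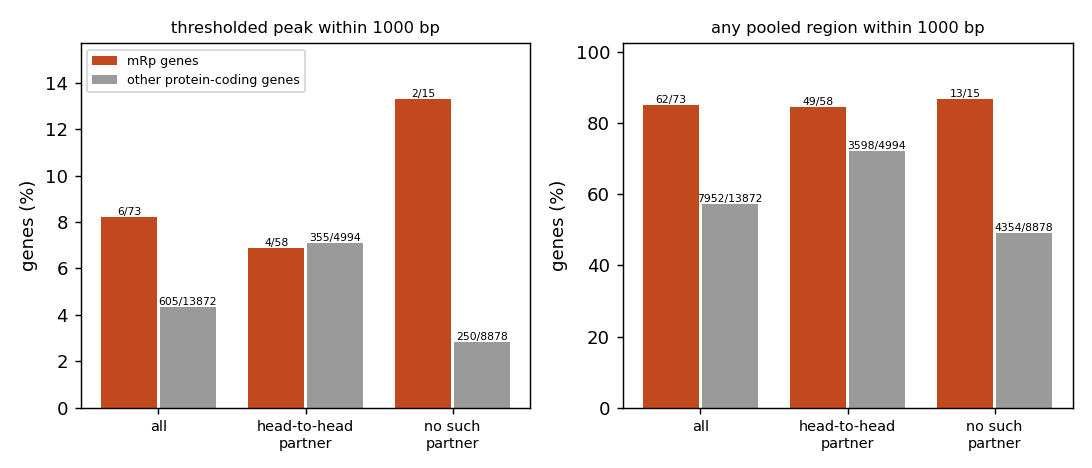
Share of genes (y axis, percent) with a thresholded peak (left) or any pooled region (right) whose summit lies within 1000 bp of a start, for mRp genes and other protein-coding genes, over all genes and by presence of a head-to-head partner. Counts stand on the bars. The peak shares of 6.90% and 7.11% among genes with a partner are close together, while the share with any region is 84.5% against 72.0%.

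The strongest mRp peak was at mRpL13, whose product is the counterpart of bacterial ribosomal protein L13 of the large subunit. The gene (FBgn0032720, 2L 18858028 to 18859248, minus strand) had a signal of 599 in the pooled list, rank 14 of 30000. Overlapping regions had signals of 242, 187 and 169 and ranks of 14, 23 and 10 in replicates 1, 2 and 3, so every replicate placed this region among its strongest. The peak (2L 18859198 to 18859491) had its summit in intergenic sequence 92 bp upstream of the start, and the centre of the palindrome shown above lay 1 bp from that summit. The start is not a head-to-head one. The gene CG10602 (FBgn0032721) begins at the same base on the same strand, at 18859248, so which of the 2 genes the peak belongs to cannot be told apart. The 3′ end of tup, which encodes the LIM-homeodomain factor Tailup, lay 167 bp beyond the summit, also on the minus strand. Within the peak, GGTCACAC, the element of the promoter factor M1BP, lay 27 bp downstream of the start (capitals).
mRpL13 M1BP element (chr2L:18859207-18859236, minus strand): cttcataccttGGTCACACtgtctgccagc

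The next was between mRpS23, a small-subunit gene (FBgn0260407, 2L 13834250 to 13835072, minus strand), and CenG1A (FBgn0028509), which encodes a GTPase-activating protein of the centaurin family and starts 492 bp away. The peak (2L 13835239 to 13835654) had a signal of 180 and rank 199. Signals were 86.0, 58.9 and 34.5 and ranks 164, 251 and 297 in replicates 1, 2 and 3, which were all inside the 732 strongest. The summit was 375 bp upstream of mRpS23 but 117 bp upstream of CenG1A, and when each peak was given to the gene with the nearest start it no longer counted for mRpS23. The palindrome of mRpS23 lay nearer to the mRpS23 start, 72 bp upstream of it. It was 303 bp from the summit and 91 bp outside the peak, and no region of the pooled list or of any replicate list covered it. The peak held instead TATCGATA, the element bound by the factor DREF, 205 bp upstream of mRpS23 (capitals), and another copy stood 5 bp upstream of the start, outside the peak.
mRpS23 DREF element (chr2L:13835263-13835292, minus strand): gtttggactggTATCGATAgtaacataatg

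At mRpS10, the counterpart of bacterial S10 in the head of the small subunit (FBgn0038307, 3R 15229665 to 15230516, plus strand), the peak lay over the space of 257 bp between it and Art3 (FBgn0038306), an arginine methyltransferase gene. The peak (3R 15229379 to 15229794) had a signal of 169 and rank 231, with its summit 78 bp upstream of mRpS10 and 179 bp upstream of Art3. Signals were 86.5, 56.1 and 20.8 and ranks 162, 273 and 848 in replicates 1, 2 and 3. The region was thus lowest in replicate 3, past the 732 strongest there. None of the 6 motifs searched lay in it.

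At mRpL23, the counterpart of bacterial L23 at the exit of the peptide tunnel (FBgn0035335, 3L 2372844 to 2373704, minus strand), the starts of the gene and of CG9004 (FBgn0035336) were 24 bp apart at their closest. The gene has 3 annotated starts. The peak (3L 2373337 to 2373752) had a signal of 129 and rank 339, with its summit in an mRpL23 intron, 44 bp upstream of the nearest of them and 183 bp from the CG9004 start. Signals were 45.2, 36.2 and 48.6 and ranks 458, 524 and 178 in replicates 1, 2 and 3, inside the 732 strongest each time. The peak held none of the motifs searched.

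Of the remaining peaks, mRpL41 and mRpL40 were each weak or missing in 1 replicate. Both encode large-subunit proteins without a bacterial counterpart. The mRpL41 peak (2R 15217515 to 15217930, signal 136, rank 315) had its summit 106 bp upstream of the gene (FBgn0034001) and 656 bp upstream of CG8079, whose start lies 762 bp from that of mRpL41. It ranked 185 and 261 in replicates 1 and 3 (signals 80.5 and 38.4) but 3129 in replicate 2 (signal 17.8). The mRpL40 peak (3R 11407713 to 11408128, signal 77.1, rank 707) stood just inside the threshold, with its summit 3 bp downstream of the start of the gene (FBgn0037892), in its 5′ UTR. It ranked 581 and 567 in replicates 1 and 2 (signals 39.3 and 34.4), and no region of replicate 3 overlapped it. The gene has no head-to-head partner, and the 3′ end of pros, which encodes the neural homeodomain factor Prospero, lay 294 bp from the summit. GGTCACAC lay 125 bp downstream of the mRpL40 start. Recovery was counted as an overlap of at least 1 bp with one of the 1000 highest-signal regions of a replicate, and 4 of the 6 peaks were recovered in all 3 replicates, those of mRpL13, mRpS23, mRpS10 and mRpL23. Recovery in all 3 was not counted for the peaks of other genes. With recovery asked of 2 replicates at a time, 4 to 5 of the 6 mRp genes and 466 to 496 of 605 other genes kept a peak.

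**Figure D4:**
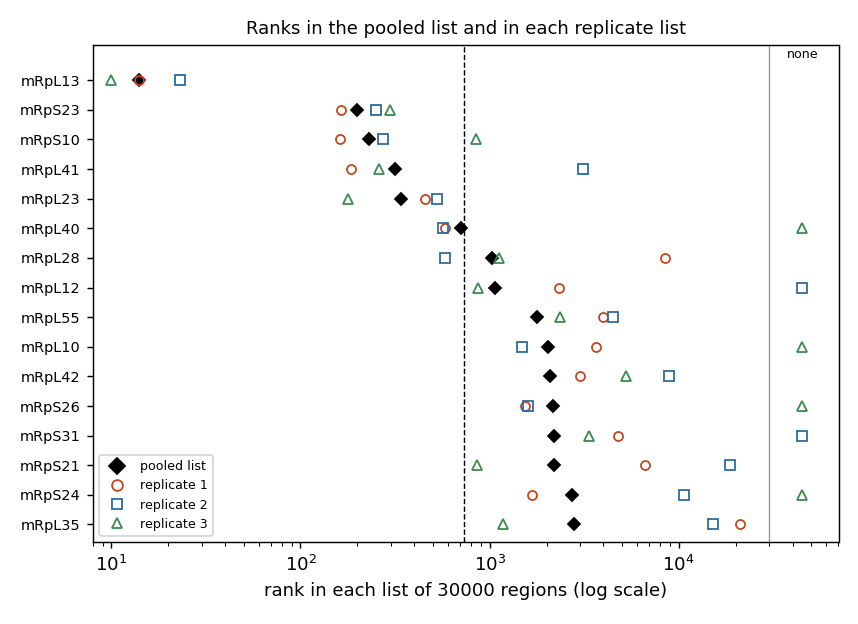
Rank of the best pooled region (diamonds) and of the best overlapping region in replicates 1, 2 and 3 (circles, squares and triangles) for the 16 mRp genes with a pooled rank to 3000, on a log axis. The dashed line marks rank 732 and symbols right of the grey line stand for no overlapping region. The 3 replicates lie close together for mRpL13 (10 to 23) and far apart for mRpL41 (185 to 3129), inside the threshold, and mRpL35 (1179 to 21061), past it.

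Counted in each replicate's own list, mRp genes stood at the 732 strongest regions 6 times in replicate 1, 6 times in replicate 2 and 4 times in replicate 3, with a mean of 5.33 ± 1.15 (SD, n = 3) of 73. The shares were 8.22%, 8.22% and 5.48%, beside 4.61%, 4.40% and 4.92% of other protein-coding genes. The difference from other genes was smallest in replicate 3, where the share was within 1 gene of the background. These replicate shares were not split by head-to-head partner. In the pooled list the peak shares among genes with a partner were 6.90% for mRp genes and 7.11% for others. The alignments of these replicates entered the pool, so the replicate lists are not independent of the pooled ranking.

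A further 10 mRp genes had their best pooled region between the threshold and rank 3000, which made 16 of 73 (21.9%) with a rank to 3000, beside 14.8% of other genes. With a head-to-head partner the share was 12 of 58 (20.7%) beside 24.7%, and without one 4 of 15 (26.7%) beside 9.32%. Just outside the threshold was mRpL28, the counterpart of bacterial L28, at rank 1028 with a signal of 62.3. Its region lay 392 bp upstream, in coding sequence of CG14043 and inside an intron of its head-to-head partner (FBgn0010607), whose start is 55 bp away. That region ranked 579 in replicate 2 and 1121 in replicate 3 but 8438 in replicate 1. In replicate 1 another region within 1000 bp of the mRpL28 start ranked 1208. The next, at rank 1070 with a signal of 61.0, lay in the coding sequence of mRpL12, the counterpart of the bacterial stalk protein that recruits translation factors. It ranked 2325 in replicate 1 and 869 in replicate 3 and was not overlapped in replicate 2.

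Among the other 8 genes all 3 ranks of overlapping regions lay within a factor of 2 of each other in mRpL55 alone. In 4 genes no region overlapped in 1 replicate, although that replicate had another region within 1000 bp of the start. Its rank was 1272 for mRpL10, 3713 for mRpS26, 5918 for mRpS31 and 3891 for mRpS24. Where a region overlapped, a better-ranked one within 1000 bp stood at mRpS24 in replicate 2 (2627) and mRpL35 in replicate 1 (8115). At mRpS26 in replicate 1 the best region within 1000 bp ranked lower, 21071. For mRpL55, next to ATPsynD, the region at rank 1790 ranked 3974, 4512 and 2365 in replicates 1, 2 and 3. The stalk base gene mRpL10 stood at rank 2045, with ranks 3635 and 1482 in replicates 1 and 2 and no overlap in replicate 3. At mRpL42, next to PIG-N of GPI anchor synthesis, rank 2099 was accompanied by 2992, 8939 and 5281. For mRpS26 the summit at rank 2169 lay 985 bp upstream, in the 5′ UTR of its partner CG13698, and ranked 1547 and 1601 in replicates 1 and 2 without an overlap in replicate 3. That region held CAATCAGA, an 8-mer named from earlier results of these data, 64 bp from its summit. It also held overlapping matches to GAGAGAG, 140 to 144 bp from the summit. At mRpS31, next to hzg, rank 2198 was accompanied by 4771 and 3369 in replicates 1 and 3, with no overlap in replicate 2. The region of mRpS21, the counterpart of bacterial S21, had rank 2199 and ranked 6650, 18645 and 857. It was the one among the 10 with its summit close to the start, 69 bp upstream, between mRpS21 and the chaperone gene Droj2, and GGTCACAC lay 99 bp from the summit. For mRpS24, next to Apc2, a destruction complex gene of Wingless signalling, rank 2734 was accompanied by 1675 and 10648 in replicates 1 and 2, with no overlap in replicate 3. At mRpL35, next to Mitofilin of the inner membrane cristae, rank 2790 was accompanied by 21061, 15205 and 1179. GGTCACAC lay in that region, 151 bp from its summit.

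Thresholded peaks and weaker regions lay at different places. The summits of the 6 peaks were 3 to 375 bp from a start (median 85 bp), with 5 of 6 within 250 bp, and none was in coding sequence. Of the 10 regions between the threshold and rank 3000, 1 was within 250 bp, the median distance was 486 bp, and 8 summits lay in coding sequence of the mRp gene or a neighbour. Of the 46 best regions past rank 3000, with ranks from 3571 to 29485, 5 were within 250 bp and 30 (65.2%) were in coding sequence. The best regions of other genes moved in the same direction, from 49.1% within 250 bp and 4.63% coding among thresholded peaks to 23.2% and 45.5% between the threshold and rank 3000 and 19.1% and 51.7% past it. Gene length goes with these values, since 70 of 73 mRp genes (95.9%) and 46.5% of other genes were 2000 bp long or less, and its part in them was not tested. Most summits, 29878 of 30000 pooled and 5 of the 6 at mRp peaks, coincide with the middle of their region, which limits how finely these distances can be read.

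**Figure D5:**
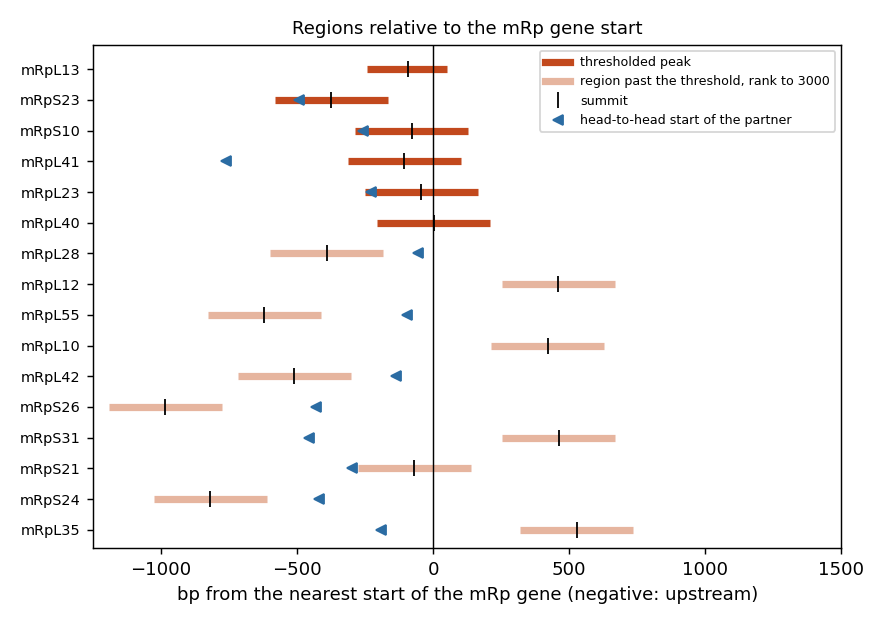
Extent of the best pooled region and its summit (black tick) relative to the nearest start of each of 16 mRp genes, in bp with negative values upstream, with the nearest start of the head-to-head partner as a triangle. Dark bars are thresholded peaks and light bars regions between the threshold and rank 3000. The 6 dark summits lie between 375 bp upstream and 3 bp downstream, and 9 of the 10 light ones lie more than 250 bp from the start.

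Counted over the whole pooled list, peaks and background together, 62 of 73 mRp genes (84.9%, Wilson 95% interval 75 to 91.4%) had a region within 1000 bp, beside 57.3% of other genes. With a head-to-head partner the share was 49 of 58 (84.5%, Wilson 95% interval 73.1 to 91.6%) beside 72.0%. Without one it was 13 of 15 (86.7%) beside 49.0%, and with 1 annotated start 58 of 67 (86.6%) beside 51.4%. The share was 43 of 47 for mRpL and 19 of 26 for mRpS genes. Regions ranked to 10000 were present for 47.9% of mRp genes and 32.7% of the others. Among genes with a region, the median best rank was 8355 for mRp genes and 7966 for the others. It was 8375 and 5228 with a partner, and 6723 and 10660 without one. With genes that had no region entered last, the medians were 10650 and 22500 over all genes, 13046 and 10390 with a partner, and 8601 and 30001 without one. The order of mRp genes and others therefore turned with the presence of a partner. In the replicates' own lists, 69.9%, 82.2% and 72.6% of mRp genes had a region, a mean of 74.9% ± 6.47 (SD, n = 3) beside 56.6% ± 0.685 of other genes. All 3 lists held one for 33 mRp genes (45.2%) and for 31.3% of others.

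No pooled region lay within 1000 bp of 11 mRp genes, among them mRpL20, mRpL24, mRpL46, mRpL47, mRpS14, mRpS17, mRpS25, mRpS30, mRpS33 and mRpS5. In 10 of the 11 at least 1 replicate's own list had a region, at ranks from 2541 at mRpS33 in replicate 3 to 29575 at mRpS17 in replicate 2. The exception was mRpS30, with none in any list. Over all genes, with or without a pooled region, no replicate list held a region for 1.37% of mRp genes and 19.0% of others. The share among other genes without a pooled region was not counted. The lowest signal in the pooled list was 19.3, and binding weaker than the list's last region was not detectable here.

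By arm, mRp genes with a peak numbered 2 of 12 on 2L (3.48% of other genes), 1 of 12 on 2R (4.05%), 1 of 17 on 3L (4.15%), 2 of 21 on 3R (4.35%) and 0 of 11 on X (6.27%). No mRp gene lay on chromosome 4.

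Motifs were sought on both strands in the 300 bases around each start described above. CCAATTGG was present at 3 of 73 mRp genes (4.11%), mRpL13, mRpS23 and mRpL27, and at 1.26% of other genes (175 of 13872). A gene was counted when the promoter of any of its starts held the motif. Because 91.8% of mRp genes but 73.4% of others had 1 start, more sequence was searched per gene among the others. Over 1000 bases to each side of a start the order was the opposite, with the palindrome at 4 of 73 mRp genes and at 6.91% of the others. Of the 175 other genes, 28.0% had a thresholded peak, as did mRpL13 and mRpS23. At mRpL27, the counterpart of bacterial L27 next to the peptidyl transferase centre, the palindrome lay 26 bp upstream of the outer start. The best region of the gene ranked 3766 and its edge was 207 bp away, and the region that covered the palindrome ranked 8983. It ranked 22441 and 7692 in replicates 2 and 3, with no covering region in replicate 1. A match to CCAATTGG in an mRp promoter was therefore seen under a strong peak, beside a peak and under a weak region.

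The DREF element TATCGATA was the most frequent of the 6 motifs, in promoters of 16 of 73 mRp genes (21.9%) beside 10.1% of other genes (1401 of 13872). Among genes with a head-to-head partner it was in 13 of 58 (22.4%) beside 17%, and among the rest in 3 of 15 beside 6.20%. Its centre lay on the start of mRpL3 and mRpS18B, 2 bp downstream in mRpS29, 1 bp upstream in mRpL17, 5 bp upstream in mRpL10 and mRpS23 and 6 bp upstream in mRpL20. Of the 16 genes, mRpS23 alone had a thresholded peak, and 7.14% of other genes with the element had one. The M1BP element GGTCACAC was in 8 of 73 (11%) beside 8.69%. Among genes with a head-to-head partner the order was the opposite, 7 of 58 (12.1%) beside 15%. Of the 8 genes mRpL13 alone had a peak, beside 6.88% of the others with the element. GAGAGAG was in 1 promoter, that of mRpL43 (1.37%), beside 9.12%. Among genes with a head-to-head partner it was in 1 of 58 (1.72%) beside 6.81%, and among the rest in 0 of 15 beside 10.4%. The Elba site CCAATAAG and CAATCAGA were in none of the 73, beside 1.28% and 1.79%. Within 100 bp of the summits of all 732 peaks, CCAATTGG was found in 13.4%, CCAATAAG in 7.79%, CAATCAGA in 7.65%, GAGAGAG in 8.20%, TATCGATA in 3.55% and GGTCACAC in 3.14%. CCAATTGG, CCAATAAG and CAATCAGA had been named in earlier results of these data, so their shares at these peaks are not independent of that choice. No share in other regions is given beside them. Among the 6 mRp peaks a motif was found within 100 bp of the summit in that of mRpL13 alone.

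Other genes of mitochondrial function were counted in lists made by symbol, to be read against the 4.36% of genes outside the mRp group that had a thresholded peak and the 7.11% of those with a head-to-head partner. Of 20 genes for mitochondrial transcription, translation and DNA maintenance 1 had a peak, mRF1, which encodes a release factor that ends mitochondrial translation (rank 118, signal 249, 530 bp upstream, with ranks 143, 98 and 123 in the replicates). Of 15 mitochondrial aminoacyl-tRNA synthetase genes 2 had one. They were AlaRS-m (rank 65, signal 323, 33 bp upstream, with ranks 60, 85 and 69) and LeuRS-m (rank 281, signal 148, 780 bp upstream, with ranks 341, 287 and 220), which charge the alanine and leucine tRNAs. In respiratory complex I, the entry point for electrons from NADH, 2 of 40 had one, ND-18 (rank 77, signal 298, with ranks 65, 96 and 121) and ND-ASHI (rank 142, signal 216, with ranks 175, 173 and 102). In ATP synthase 2 of 15 had one, ATPsynF (rank 19, signal 498, with ranks 24, 20 and 24) and ATPsyndelta (rank 297, signal 142, with ranks 259, 318 and 314). Protein import gave 1 of 15, Tim10, a chaperone of the intermembrane space (rank 460, signal 104), which ranked 194 in replicate 3 but 1751 and 1910 in replicates 1 and 2. Complexes III and IV gave 0 of 9 and 0 of 16.

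A head-to-head partner, present for 79.5% of mRp genes and for 36.0% of all genes outside the mRp group, was found for 66.7% of ATP synthase genes, 55.0% of the gene expression factors and 55.0% of complex I. It was found for 8 of 16 complex IV genes, and the share was 46.7% among the synthetases, 33.3% in protein import and 22.2% in complex III. The cytosolic ribosomal protein genes, which serve the same task outside the mitochondrion, had a partner in 55 of 92 cases (59.8%) and a thresholded peak in 5 (5.43%), RpL26, RpL34b, RpS26, RpS5a and RpL41, with signals from 369 to 85.5. The median best rank was 5663 for them and 10650 for the mRp genes, with genes that had no region entered last. The share with any pooled region had the opposite order, 76.1% for them and 84.9% for the mRp genes. Median best ranks of the other lists ran from 2248 for ATP synthase to 30001 for complex IV. No test of these differences between lists was made.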

How the data were processed

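The authors deposited, for dm6, lists of 30000 regions for each of the 3 replicates and for the pooled alignments, called with a control library, and a list of 732 peaks past an IDR threshold, per the text lists beside the samples. The signal value of each region is the authors' own; signal was compared within a list only. Its scale, the sequencing depth, the aligner, the caller and the threshold were not given in the sources used here. Shearing gave a labelled size range of 200 to 800. Regions were ranked by signal and joined to protein-coding transcript starts of Ensembl release 115 (BDGP 6.54, the same release 6 assembly as dm6), on the 6 arms. Sequences are from the RefSeq copy of that assembly. Genes named are mRp genes with a thresholded peak or a pooled rank to 3000, up to 10 without a region, and list members with a peak. The symbol ico was matched as mEFG1. No test between gene groups was made, and Wilson intervals are given for some of the mRp shares only. Members, lists and alternatives were chosen with earlier results of these data known. The joining code was checked on planted regions. Python 3.11.15, NumPy 2.4.6, pandas 2.3.3, SciPy 1.17.1 and matplotlib 3.10.9 were used. The dm3 lists and the control library were not used here.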

Additional observations from a re-analysis of the deposited data

How the results depend on the processing

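The 6 mRp genes with a thresholded peak became 5 to 8 under other distances, starts, assignments and thresholds, with 6 at 500 bp (3.31% of other genes), 8 at 2000 bp (mRpL3 and mRpL55 added; 5.58%), 5 with nearest starts (without mRpS23; 3.27%) and 5 among the stronger peaks (without mRpL40; 2.62%). Leaving out a replicate, which keeps peaks of the same pooled list that were recovered in both others, left 4 to 5 (3.36 to 3.58% of others). The mRpL40 peak was not recovered in replicate 3 and the mRpL41 peak not in replicate 2. Each was lost whenever that replicate was among those asked. Genes with any pooled region numbered 62 at 1000 bp, 40 at 500 bp (37.2% of other genes) and 22 in the 5000 strongest regions (21.4% of others). The median best rank of 10650 was 24550 at 500 bp, 6438 at 2000 bp and 8355 among genes with a region, where other genes had 30001, 12576 and 7966; the last order is the opposite of the main one. Per replicate, the mean of 5.33 genes was 8.33 at 2000 bp, and 5 to 6 when a replicate was left out. The means for the 13872 other genes were 644, 832 and 624 to 660 in the same order. Head-to-head partners numbered 53 at 500 bp, 58 at 1000 bp and 59 at 2000 bp. The shares of other genes with a partner were 27.1%, 36.0% and 44.3%, so the contrast narrowed as the distance grew from 1000 to 2000 bp. The depth behind the lists is unknown.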
